A study of Capra hircus with 13 samples.

Results

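The heat shock proteins and chaperonins are the genes whose products fold newly made proteins and refold damaged ones. They were taken here by name alone: all HSPA to HSPH and HSP names with a number, the DNAJA, DNAJB and DNAJC genes, the CCT subunits and TCP1. The rule found 81 of the 27193 gene names listed in any of the 5 deposited tables, and 76 of the 81 were listed for all 13 libraries. By family they were 10 HSP70, 3 HSP110, 3 HSP90, 2 HSP60 and HSP10, 7 small HSP, 4 DNAJA, 13 DNAJB, 27 DNAJC and 8 CCT genes. The remaining 4 names fit the rule but code for other proteins. HSPG2 is a basement membrane proteoglycan, HSPBP1 and HSPBAP1 are named for binding HSP70 and a small HSP, and HSPB11 is a subunit of the intraflagellar transport machinery.

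HSP70 proteins bind short hydrophobic stretches of unfolded chains, DNAJ (HSP40) co-chaperones hand them the chains and switch on their ATPase, and HSP110 proteins exchange the spent nucleotide. HSP90 takes over late in the folding of kinases and receptors, and the CCT ring, built from 8 different subunits of which TCP1 is the alpha subunit, folds actin and tubulin. Heat shock factors switch on the inducible members, and in mouse embryos an inducible HSP70 is known as one of the early products of the zygotic genome.

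RNA sequencing was compared between goat MII oocytes (matured in vitro), 4-cell embryos and 8-cell embryos, with 3 untreated libraries each, produced by in vitro fertilization. The paper took the data of these 3 stages from 2 earlier studies by its authors, without saying which study gave which stage. A difference between stages may therefore coincide with a difference between studies. A second experiment compared 8-cell embryos that were injected with control siRNA (NC) or with YTHDF2 siRNA (KD) as zygotes, at 20 µM and 8 h after fertilization, with 2 libraries of pooled embryos each. YTHDF2 binds N6-methyladenosine in mRNA and promotes its decay, and the question was how maternal mRNA is cleared. The labels do not say that replicates came from separate cultures, so a p-value measures the spread between these libraries, which may be technical.

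In the YTHDF2 siRNA libraries YTHDF2 stood at 8.07 and 4.47 FPKM, against 112 and 159 FPKM in the NC libraries. The untreated 8-cell libraries, whose scale was set apart, held 10.8, 16.7 and 12.5 FPKM of it, far below NC. Replicates correlated at r = 0.854 to 0.978 across genes on the log2(FPKM + 1) scale. The 2 lowest of these values, 0.854 and 0.898, were those of 8-cell 1 with the other 8-cell libraries, and 12.7% of the 9090 genes tested were more than 3-fold higher in 8-cell 1 than in both of these (at most 4.18% in any other untreated library). The tested members among them were DNAJB1, DNAJC14, DNAJC5, HSP70.1 and HSPBP1, and calls lost without 8-cell 1 are given with their values. Of 8 oocyte markers 7 were listed and all 7 were above 0 in every group. Their summed FPKM was 1375 to 2362 in MII, 2067 to 3289 in 4-cell and 2462 to 2809 in 8-cell embryos. Of 10 cumulus and granulosa markers 9 were listed, and they summed to 56.9 to 76.1 FPKM in MII, 67.9 to 75.0 FPKM in 4-cell and 95.6 to 142 FPKM in 8-cell embryos, with INHA at 0 in all 3 8-cell libraries. The 8-cell libraries thus lay above all MII and 4-cell libraries for these markers. Sperm markers (4 of 7 listed in MII, 6 in the embryos) summed to 3.76 to 6.41 FPKM in MII, 9.59 to 16.0 FPKM in 4-cell and 8.30 to 21.7 FPKM in 8-cell embryos, and blood markers (2 of 3 listed, CD74 at 0 throughout) to at most 1.02 FPKM, in an 8-cell library. Much of these sums was 1 gene. ODF2 led the sperm markers (means of 4.57, 11.2 and 13.3 FPKM by stage) and STAR the cumulus markers (30.8, 34.8 and 58.9 FPKM). PRM2, TNP2 and ODF1 were at 0 in all 4-cell libraries. The part of these differences in the stage results was not tested.

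The families as a whole took close to the same share of the measured RNA throughout. Members summed to between 0.820% and 1.09% of the FPKM on the 18138 names shared by all tables, in each of the 13 libraries. Within that share some families stood apart between groups, which was not tested. HSP70 genes took 0.1% ± 0.024 (SD, n = 3) of the summed FPKM in MII, 0.138% ± 0.026 in 4-cell embryos and 0.131% ± 0.017 in 8-cell embryos, and these groups overlapped, MII 2 (0.128%) lying above 2 of the 4-cell and 1 of the 8-cell libraries. DNAJA genes took 0.0661% ± 0.0031, 0.110% ± 0.014 and 0.124% ± 0.016 in the same groups, with all 6 embryo libraries above the MII libraries. HSP90 genes took 0.191% ± 0.013 in MII and 0.118% ± 0.019 and 0.125% ± 0.014 in 4-cell and 8-cell embryos, and the MII libraries lay above all 6 embryo libraries. FPKM is relative to the library total and does not give the amount of RNA per embryo or cell. A gene that rose in FPKM may therefore not have risen in amount.

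Most members were detected, and few were abundant. An average of 1 FPKM or more was found for 59 of the 76 listed members in MII, 58 of 81 in 4-cell embryos, 60 in 8-cell embryos, 65 in NC and 64 in KD. At least 100 FPKM was reached by 10, 11, 11, 14 and 15 members in these groups. The highest mean belonged to CCT8 in MII, to CCT2 in 4-cell and 8-cell embryos and to HSPA8 in NC and KD. At the other end, the small HSP genes HSPB7 and HSPB8 did not exceed 0.0195 FPKM in any library that lists them.

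**Figure D1:**
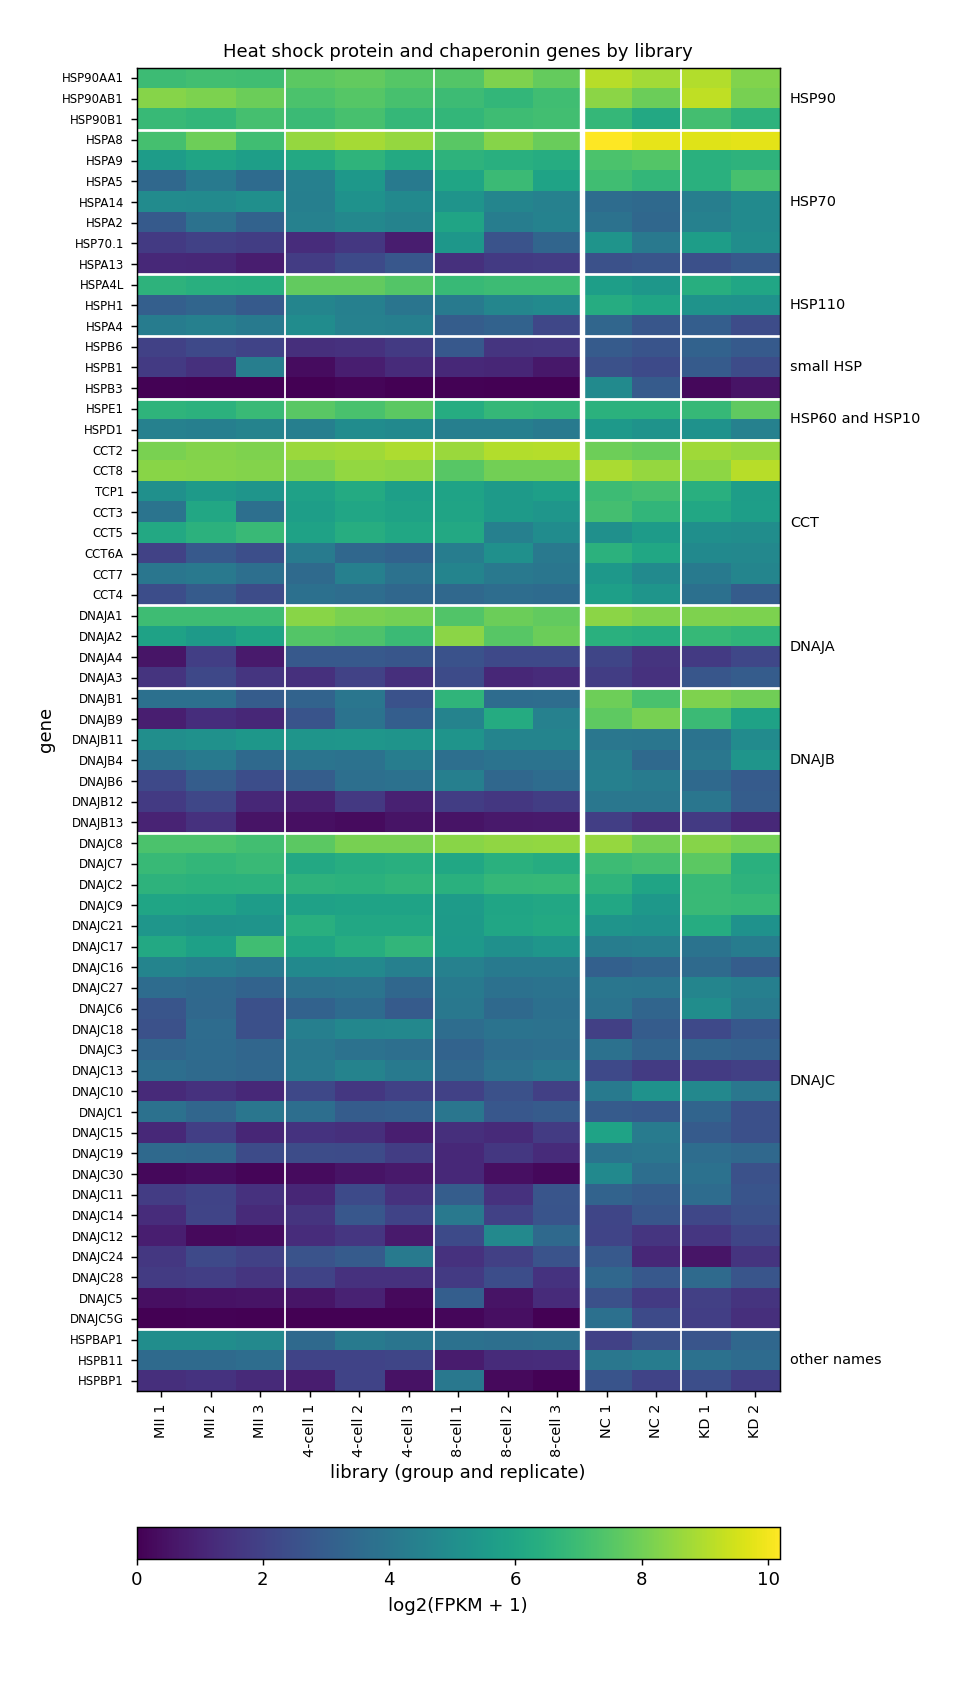
Level of the 64 heat shock protein and chaperonin genes averaging 1 FPKM or more over the libraries that list them, as log2(FPKM + 1) by colour, with genes in rows by family and the 13 libraries in columns. The thick white line parts the untreated from the injected libraries, which were normalized apart. HSP90AB1 is brighter in the 3 MII libraries than in the 6 embryo libraries, HSPA5 and DNAJB9 are brightest among untreated libraries at the 8-cell stage, and 8-cell 1 stands out for DNAJB1 and HSP70.1.

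Genes were tested with limma on log2(FPKM + 1), and a gene was called where the unadjusted p was under 0.05 and the change more than 2-fold, which is the study's criterion. Benjamini-Hochberg adjusted p-values over all genes of the fit are given beside single genes. Of the 81 members, 60 passed the filter of a mean of 1 FPKM at the untreated stages and 66 in the injected embryos. Members that passed only through a group where they were high had to differ, so the counts describe the members tested and not the family as a whole.

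Between MII and the 4-cell stage, 14 of the 60 members rose (23.3%, against 16.7% of the 9090 genes tested) and 3 fell (5.0%, against 6.06%). Of these, 13 and 2 also passed an adjusted p of 0.05, beside 15.4% and 5.09% of all genes. From MII to the 8-cell stage 12 rose (20.0%, against 19.8% of all genes) and 8 fell (13.3%, against 8.14%). After adjustment 11 and 7 of them passed, beside 18.5% and 7.58% of all genes. From the 4-cell to the 8-cell stage 4 rose (6.67%, against 4.55%) and 3 fell (5.0%, against 4.28%). After adjustment 4 and 1 of them passed, beside 2.29% and 3.17% of all genes. Without 8-cell 1, 10 of the 12 higher and 7 of the 8 lower calls against MII were kept (DNAJB6, DNAJC14 and HSPB1 were lost), and all 4 higher and 2 of the 3 lower calls against the 4-cell stage (DNAJC24 was lost). Other libraries moved the last comparison too, with 8 members called higher without 8-cell 2 and 1 called lower without 4-cell 3. HSPB1 and DNAJC12 passed the filter only through the group where they were high, and without them 14 rose and 2 fell from MII to 4-cell embryos, 11 and 7 from MII to 8-cell embryos, and 3 and 3 from 4-cell to 8-cell embryos. The comparisons share libraries, so their calls are not independent of each other.

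Against MII, the median log2 fold change of the members was 0.31 in 4-cell and 0.35 in 8-cell embryos, beside 0.29 and 0.37 for all genes tested. The typical gene was thus itself above MII on this scale, and the members did not stand off from it. Between the 4-cell and 8-cell stages the members' median was -0.01 and that of all genes 0.07. When the libraries were rescaled by median ratios, 7 members were called higher and 5 lower at the 4-cell stage, and with equal sums 3 and 6. Only DNAJA4, DNAJB9 and DNAJC18 were called higher at the 4-cell stage under both rescalings. At the 8-cell stage 9 of the 12 higher and all 8 lower calls against MII were kept under both. In all, 32 of the 60 members (53.3%, against 62.6% of the 9090 genes) were called in none of the stage comparisons, among them HSP90AA1, HSP90B1, HSPA9, HSPD1, HSPE1, CCT2, CCT7, CCT8 and TCP1.

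**Figure D2:**
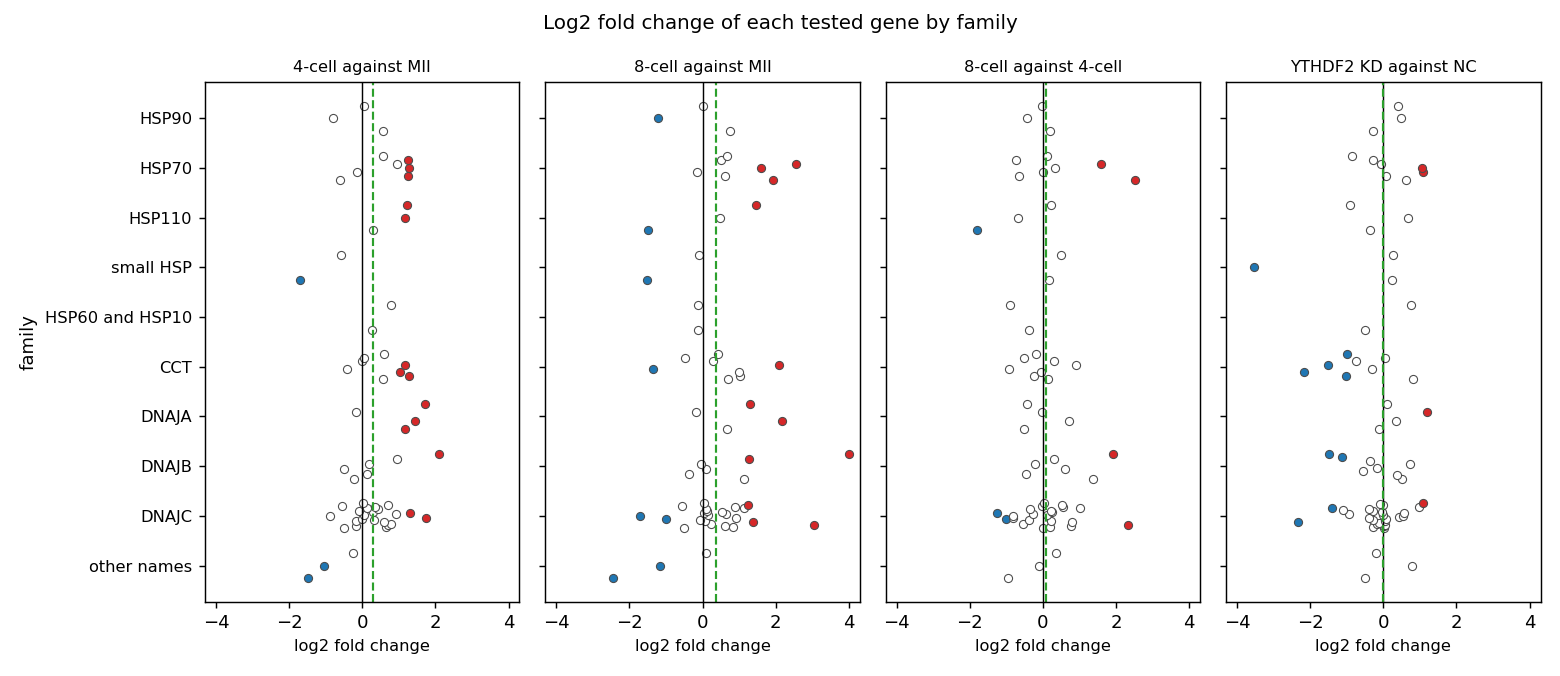
Log2 fold change of each tested member on the log2(FPKM + 1) scale (horizontal axis) by family (vertical axis) in the 4 comparisons. Red circles were called higher, blue circles lower and open circles neither, and the dashed green line is the median of all genes tested. The tested HSP110 and DNAJA genes lie mostly right of the dashed line at the 4-cell stage, DNAJB9 is the point furthest right at the 8-cell stage against MII, and 4 CCT genes are blue in the knockdown comparison.

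The HSP90 genes changed places. HSP90AB1, the constitutive cytosolic form, stood at 326, 292 and 241 FPKM in MII, at 159, 182 and 148 FPKM in 4-cell embryos and at 127, 106 and 131 FPKM in 8-cell embryos. The 3 groups did not overlap and each later stage was lower. It fell at the 8-cell stage against MII (log2 fold change -1.23, SE 0.17, adjusted p = 0.000644) and in 4-cell embryos its difference was -0.81 (SE 0.17, adjusted p = 0.00663), short of the 2-fold limit, which it passed under both rescalings (-1.11 and -1.34). HSP90AA1, the stress-inducible cytosolic form, read 125, 136 and 132 FPKM in MII, 194, 214 and 179 FPKM in 4-cell embryos, and 174, 295 and 216 FPKM in 8-cell embryos. All 6 embryo libraries were above all MII libraries, but neither difference reached 2-fold (0.57 and 0.76 on the log2 scale, adjusted p = 0.0518 and 0.0135). HSP90AA1 over HSP90AB1, a ratio that does not depend on how a library is scaled, was 0.465 ± 0.081 (SD, n = 3) in MII, 1.2 ± 0.025 in 4-cell embryos and 1.94 ± 0.76 in 8-cell embryos. It was below 1 in each MII library and above 1 in each embryo library. HSP90B1, the HSP90 of the endoplasmic reticulum, ranged from 107 to 149 FPKM over the 9 untreated libraries and its groups overlapped, with log2 fold changes of 0.04 and 0.01 against MII that turned negative under both rescalings.

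**Figure D3:**
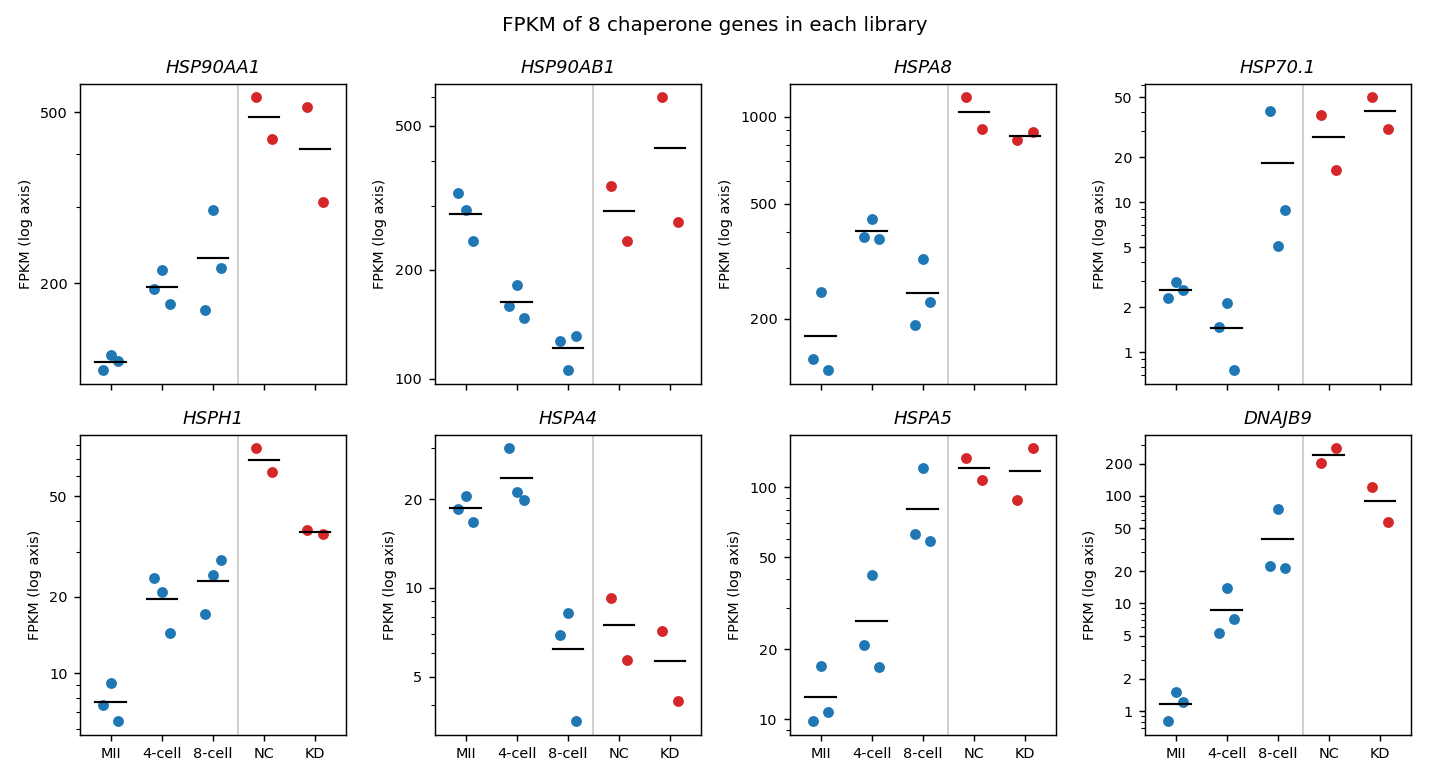
FPKM (log axis) of 8 chaperone genes in each library, by group, with a black line at the group mean. Blue points are untreated and red points injected 8-cell libraries, and the scales on the 2 sides of the grey line were set apart. HSP90AB1 steps down from MII to the 8-cell stage while HSPA5 and DNAJB9 step up, HSP70.1 has 1 high 8-cell library at 40.6 FPKM, and DNAJB9 and HSPH1 lie lower in both KD than in both NC libraries.

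Among the HSP70 genes, 3 of 7 tested rose in 4-cell and 3 in 8-cell embryos against MII, and none fell (16.7% and 19.8% of all genes were called higher). The 4-cell count was 2 with median ratios and 0 with equal sums, while the 8-cell count stayed at 3. The family median lay 0.67 and 0.31 above that of all genes, on the log2 scale, and above it under both rescalings as well. HSPA8, the constitutive HSP70 of the cytosol, was measured at 146, 247 and 133 FPKM in MII and at 383, 443 and 377 FPKM in 4-cell embryos. These did not overlap, and HSPA8 rose 2.29-fold in mean FPKM (log2 1.24, SE 0.26, adjusted p = 0.00696), a call lost under both rescalings (0.94 and 0.70). At the 8-cell stage it was back between, with 190, 322 and 228 FPKM, and was not called against either earlier stage. HSPA2, an HSP70 best known from male germ cells, had 6.36, 13.3 and 8.14 FPKM in MII, then 21.4, 25.7 and 22.3 FPKM in 4-cell and 60.1, 18.8 and 21.6 FPKM in 8-cell embryos. It rose at both stages (log2 1.29 and 1.61, adjusted p = 0.0404 and 0.0133), the 4-cell call being lost with equal sums (0.79). Without 8-cell 1 its 8-cell change was 1.10 and still called. HSPA9, the mitochondrial HSP70, was uncalled, at 48.5 to 60.3 FPKM in MII, 69.5 to 97.2 in 4-cell and 78.8 to 95.6 in 8-cell embryos.

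The inducible HSP70 gene, listed as HSP70.1 (a name under which the reference table gives hspA1A as a synonym), was low in MII with 2.31, 2.93 and 2.61 FPKM and low in 4-cell embryos with 1.46, 2.13 and 0.760 FPKM. In 8-cell embryos it read 40.6, 5.10 and 8.90 FPKM, so all 3 lay above all earlier libraries but differed widely among themselves. HSP70.1 rose against MII (log2 1.91, SE 0.60, adjusted p = 0.0308) and against the 4-cell stage (log2 2.51, SE 0.60, adjusted p = 0.0342). Leaving out 8-cell 1 brought these to 1.11 (adjusted p = 0.0194) and 1.70 (adjusted p = 0.0169), both still called. Its 4-cell values rest on 81, 110 and 42 recovered fragments. In the reference table the gene's span overlaps that of LOC102177850, an HSPA1L gene and close paralog, and the authors kept uniquely mapped reads only, so reads shared by the copies may be missing. DNAJB1, the main heat-inducible HSP40, was at 101, 11.2 and 11.5 FPKM at the 8-cell stage, against 6.76 to 12.7 in MII and 4.94 to 14.9 at the 4-cell stage. Only 8-cell 1 stood above the range of the earlier stages, and DNAJB1 was not called. The same library held 15.9 FPKM of HSPBP1, against 0.188 and 0.0567 in the other two 8-cell libraries.

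HSP110 genes moved in different directions. HSPH1, the inducible HSP110, read 7.5, 9.14 and 6.46 FPKM in MII, 23.8, 20.9 and 14.4 FPKM in 4-cell and 17.1, 24.4 and 28.0 FPKM in 8-cell embryos. It rose at both stages (log2 1.23 and 1.46, adjusted p = 0.00617 and 0.00208), the 4-cell call being lost under both rescalings. HSPA4L, the most abundant of the 3 in these libraries, rose at the 4-cell stage, from 81.8 to 96.2 FPKM in MII to 175 to 210 FPKM (log2 1.17, SE 0.15, adjusted p = 0.00056), a call also lost under both rescalings (0.88 and 0.64). At the 8-cell stage it stood at 114 to 126 FPKM, uncalled against MII (0.48) and the 4-cell stage (-0.69, adjusted p = 0.0249). HSPA4 went the other way and late. It had 18.6, 20.6 and 16.8 FPKM in MII, 29.8, 21.2 and 19.9 FPKM in 4-cell embryos and only 6.93, 8.20 and 3.53 FPKM in 8-cell embryos. HSPA4 fell against MII (log2 -1.50, SE 0.28, adjusted p = 0.00299) and against the 4-cell stage (log2 -1.81, SE 0.28, adjusted p = 0.00833), and each 8-cell library was below the 6 others.

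Among members that act in the endoplasmic reticulum, HSPA5 and DNAJB9 stood out at the 8-cell stage. HSPA5 (BiP), the HSP70 of that compartment, went from 9.80, 17.0 and 10.7 FPKM in MII through 20.9, 41.9 and 16.7 FPKM in 4-cell embryos to 62.5, 121 and 58.5 FPKM in 8-cell embryos. The 8-cell libraries lay above all others, and HSPA5 rose against MII (log2 2.55, SE 0.39, adjusted p = 0.00102) and against the 4-cell stage (log2 1.60, SE 0.39, adjusted p = 0.0374). In 4-cell embryos it overlapped MII and was not called (0.96, adjusted p = 0.09), though without MII 2, 4-cell 1 or 4-cell 3 it passed the limit (1.18, 1.07 and 1.22, with limma's adjusted p from 0.069 to 0.131). DNAJB9 (ERdj4), a DNAJ partner of HSPA5, started at 0.805, 1.49 and 1.22 FPKM in MII, reached 5.31, 13.8 and 7.19 FPKM in 4-cell embryos and 22.5, 76.3 and 21.3 FPKM in 8-cell embryos. No groups overlapped, and its log2 fold change of 4.00 (SE 0.49, adjusted p = 0.000338) against MII was the largest of all 60 members. It rose in each step, by 2.09 to the 4-cell stage (adjusted p = 0.0107) and by a further 1.91 to the 8-cell stage (adjusted p = 0.0437). HSPA8 over HSPA5 was accordingly 13.9 ± 1.3 (SD, n = 3) in MII, 17.2 ± 6.1 in 4-cell embryos and 3.20 ± 0.64 in 8-cell embryos. The members known to act in the endoplasmic reticulum were 8 (HSPA5, HSPA13, HSP90B1, DNAJB9, DNAJB11, DNAJC1, DNAJC3 and DNAJC10, a list drawn up after the values were seen). Of these, 2 rose and none fell at the 8-cell stage against MII, beside 19.8% and 8.14% of all genes. Their median log2 fold change was 0.35, beside 0.37 for all genes, so the 8 as a whole stayed close to all genes. HSPA13 rose at the 4-cell stage, to 2.53, 3.93 and 5.82 FPKM from 0.783 to 1.25 FPKM in MII (log2 1.25, and 0.91 and uncalled with equal sums). The 8-cell libraries held 1.66, 2.35 and 2.5 FPKM of it, all above MII and below the 4-cell libraries, and were uncalled against both (0.61 and -0.64).

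Of the 4 DNAJA genes, which are the closest relatives of bacterial DnaJ, 3 rose at the 4-cell stage, beside 16.7% of all genes, and 2 with median ratios and 1 with equal sums. DNAJA1, a cytosolic partner of HSPA8, read 128, 129 and 130 FPKM in MII and 335, 282 and 264 FPKM in 4-cell embryos (log2 1.17, SE 0.17, adjusted p = 0.00102, and 0.87 and 0.64 under the rescalings, uncalled), and 171, 239 and 211 FPKM in 8-cell embryos. DNAJA2 rose at both stages against MII, from 57.0, 45.3 and 61.5 FPKM in MII to 173, 161 and 122 FPKM and then 341, 184 and 237 FPKM. Its 4-cell call (log2 1.46) was lost with equal sums (0.92), and its 8-cell change against MII was 2.16 (SE 0.25, adjusted p = 0.000243). In the reference table its span overlaps that of LOC108637964, and use of strand in the counting was not stated, so reads of both cannot be told apart. DNAJA4 rose from 0.510, 2.72 and 0.667 FPKM to 5.57 to 6.26 FPKM at the 4-cell stage (log2 1.73, adjusted p = 0.00461) and stood at 3.71 to 5.00 FPKM in 8-cell embryos (log2 1.28, adjusted p = 0.0149). DNAJA3, the mitochondrial member, ran from 1.2 to 4.08 FPKM in the 9 libraries and was not called.

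Apart from DNAJB9, the only DNAJB gene called at these stages was DNAJB6, which rose at the 8-cell stage against MII (log2 1.26, adjusted p = 0.0159), a call lost without 8-cell 1 (0.96) and under both rescalings (0.92 and 0.89). Of the 22 DNAJC genes tested, a family grouped by the J domain alone, 20 were uncalled against MII in 4-cell and 17 in 8-cell embryos, where 77.2% and 72.0% of all genes were uncalled. DNAJC8, a nuclear protein linked to the spliceosome, was the most abundant of them, with 135 to 158 FPKM in MII, 196 to 276 FPKM in 4-cell and 328 to 368 FPKM in 8-cell embryos. It rose at the 8-cell stage (log2 1.23, SE 0.17, adjusted p = 0.000595), a call lost under the rescalings (0.85 and 0.80). DNAJC18 was highest at the 4-cell stage, with 20.2, 25.0 and 25.8 FPKM between 4.84, 11.2 and 4.56 FPKM in MII and 11.6, 13.6 and 13.5 FPKM at the 8-cell stage (log2 1.74 against MII, adjusted p = 0.00242). DNAJC12, which binds aromatic amino acid hydroxylases, went from 0.830, 0.207 and 0.267 FPKM in MII (9 to 35 recovered fragments) to 3.94, 27.0 and 10.1 FPKM at the 8-cell stage (log2 3.03, SE 0.55, adjusted p = 0.00243). This gene passed the filter only through the 8-cell group, as its mean over the other 6 libraries was 0.903 FPKM, so it had to differ. DNAJC24 was called higher at the 4-cell stage (log2 1.29, adjusted p = 0.0474) and lower from there to the 8-cell stage (-1.24, adjusted p = 0.114). Both calls rested on 4-cell 3 and were lost without it (0.83 and -0.78). The first was lost without MII 1 (1.14) and with equal sums (0.86) as well, and the second without 8-cell 1 (-0.98). DNAJC14 was called higher at the 8-cell stage (log2 1.39, adjusted p = 0.0697) with overlapping groups, and without 8-cell 1 its difference was 0.79 and uncalled. That call was also lost without MII 1 (1.27), without MII 3 (1.23) and with equal sums (1.09).

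On the falling side, DNAJC17 had 69.8, 53.8 and 133 FPKM in MII, 60.8, 81.4 and 103 FPKM in 4-cell embryos and 43.9, 33.5 and 40.3 FPKM in 8-cell embryos. It fell against MII (log2 -1.01, adjusted p = 0.0347) and the 4-cell stage (-1.02, adjusted p = 0.0888). The first call was lost without MII 3 (-0.64) and without 8-cell 2 (-0.90), and the second without 4-cell 3 (-0.83), without 8-cell 2 (-0.91) and with equal sums (-0.90). The gene overlaps C10H15orf62 in the reference table. DNAJC19, a mitochondrial inner membrane protein, fell from 4.07 to 10.1 FPKM in MII to 1.28 to 2.14 FPKM at the 8-cell stage (log2 -1.70, adjusted p = 0.00354).

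CCT subunits assemble in equal number in the ring, but their mRNAs spanned a wide range in each library. The most abundant subunit exceeded the least abundant by 52.1-fold to 110-fold in FPKM in the MII libraries, by 38.4-fold to 59.5-fold in 4-cell and by 40.5-fold to 49.4-fold in 8-cell libraries. CCT2 and CCT8 led in all 9, with 281 to 314 and 310 to 335 FPKM in MII. CCT8 was the higher of the pair in each MII library and CCT2 in each embryo library. CCT4 and CCT6A were the lowest in MII, at 4.14 to 6.60 and 3.03 to 6.19 FPKM. CCT6A rose at both stages, the 4-cell call being lost without MII 1 (0.96) or 4-cell 1 (0.86), with 17.8, 9.55 and 8.13 FPKM at the 4-cell stage (log2 1.17, adjusted p = 0.036) and 18.9, 33.6 and 16.6 FPKM in 8-cell embryos (log2 2.08, SE 0.36, adjusted p = 0.00201). CCT4 rose at the 4-cell stage to 9.64 to 12.7 FPKM (log2 1.03, adjusted p = 0.00662), a call at the limit that was lost without MII 1 (0.96), MII 3 (0.93) or 4-cell 1 (0.95), and 8-cell embryos held 9.99 to 11.6 FPKM (0.99, just short of 2-fold, and called without 8-cell 1 or MII 2, at 1.04 and 1.17). The CCT3 call at the 4-cell stage (log2 1.29, adjusted p = 0.0974) had overlapping groups, as MII 2 held 69.0 FPKM against 14.2 and 12.1 FPKM in MII 1 and MII 3, and of the 6 single libraries left out in turn, the call held only without MII 2 (2.05). CCT5 fell at the 8-cell stage against MII (log2 -1.35, adjusted p = 0.0238), where 8-cell 1 with 69.9 FPKM lay within the MII range of 69.5 to 119 FPKM and the other two were at 20.5 and 30.3 FPKM. Without 8-cell 2 the call was lost (-0.97). The 3 CCT calls at the 4-cell stage, of 8 subunits and beside 16.7% of all genes, were lost under both rescalings. At the 8-cell stage against MII 1 subunit rose, 1 fell and 6 were uncalled, beside 19.8% of all genes higher and 8.14% lower. One of the 6 was CCT3, at 1.03 (adjusted p = 0.16), which without MII 2 was called at 1.80 (adjusted p = 0.000813 in limma). From the 4-cell to the 8-cell stage no subunit was called, but without 8-cell 1 CCT5 was called lower (-1.41) and CCT6A higher (1.02). CCT6A was also called higher without 4-cell 1 (1.23), without 8-cell 3 (1.11) and with equal sums (1.01), and CCT5 lower with median ratios (-1.01). Against MII the 8-cell family median, 0.19 above that of all genes, stayed above it under both rescalings.

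**Figure D4:**
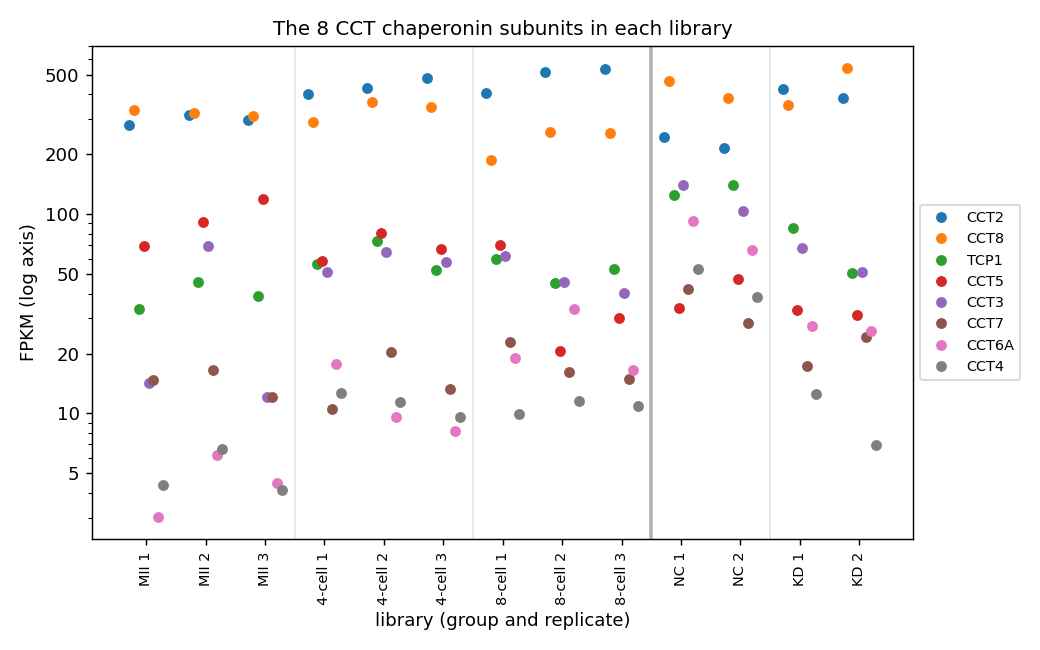
FPKM (log axis) of the 8 CCT subunits in each of the 13 libraries, 1 colour per subunit and offset sideways within a library so that none hides another, with the grey line between untreated and injected libraries. CCT2 and CCT8 stay on top throughout, and the subunits lie closest together in the 2 NC libraries, where CCT4 and CCT6A are at 38.4 FPKM or more, and spread apart again in the 2 KD libraries.

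HSPD1 and HSPE1, the mitochondrial chaperonin and its lid, were called in no comparison with all libraries in the fit. HSPD1 ranged from 17.6 to 29.9 FPKM over the 9 untreated libraries. HSPE1 stood at 93.5 to 120 FPKM in MII, 154 to 197 FPKM in 4-cell and 78.4 to 108 FPKM in 8-cell embryos, and the 4-cell libraries lay above all others without reaching 2-fold (log2 0.79 against MII, adjusted p = 0.0107, and -0.91 from there to the 8-cell stage, adjusted p = 0.0212). Without 4-cell 2 the later difference passed the limit (-1.02). Their spans overlap in the reference table, where they are neighbours. Small HSP genes were low. HSPB1 (HSP27) read 2.33, 1.66 and 19.6 FPKM in MII and 0.273 to 1.37 FPKM in the 6 embryo libraries. Its calls as lower (log2 -1.69 and -1.52) failed adjustment in limma (adjusted p = 0.0837 and 0.104) and were lost without MII 3 (-0.76 and -0.59). The first was also lost without 4-cell 1 (-1.46) or 4-cell 2 (-1.71), and the second without 8-cell 1 (-1.62), 8-cell 2 (-1.57) or 8-cell 3 (-1.36). HSPB1 passed the filter only through MII, its mean over the 6 embryo libraries being 0.909 FPKM, so it had to differ too. HSPB6 was at 1.56 to 6.04 FPKM and was not called. Of the names that are not chaperones, HSPB11 fell at both stages against MII, from 10.4 to 11.5 FPKM in MII to 3.13 to 3.36 FPKM (log2 -1.49, adjusted p = 0.00128), and at the 8-cell stage it was at 0.695 to 1.46 FPKM (log2 -2.45 against MII, adjusted p = 8.5e-05). HSPBAP1 fell from 26.9 to 31.3 FPKM in MII to 10.3 to 17.4 and 12.4 to 13 FPKM in the 2 embryo stages (log2 -1.05 and -1.16, adjusted p = 0.00478 and 0.00224), the 4-cell call being lost without 4-cell 1 (-0.86).

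Genes that work with the chaperones but lie outside the name rule were read from a list of 56, of which 46 were tested at the stages. At the 8-cell stage against MII 12 rose (26.1%, against 19.8% of all genes) and 7 fell (15.2%, against 8.14%). At the 4-cell stage 8 rose (17.4%, close to the 16.7% of all genes) and 1 fell (2.17%, against 6.06%). Without 8-cell 1, a choice made after the values were seen, 9 rose and 8 fell at the 8-cell stage. Among 11 tested genes of endoplasmic reticulum folding and the unfolded protein response, 5 rose (45.5%) and 1 fell (9.09%) at the 8-cell stage, but without 8-cell 1 only 2 rose and 1 fell. PDIA3, a disulfide isomerase, rose by 1.54 on the log2 scale (adjusted p = 0.000321). The stress transcription factor XBP1 rose to 13.6 ± 14.1 FPKM (SD, n = 3) from 1.78 ± 1.57 FPKM in MII, a mean with an SD larger than itself (log2 2.09, adjusted p = 0.0298), and by 1.34 without 8-cell 1 (adjusted p = 0.0466 in limma). The calls of ATF4, another stress transcription factor (1.01, adjusted p = 0.00933), and of CALR (1.05, adjusted p = 0.0635) and P4HB (1.11, adjusted p = 0.101), which fold proteins in that compartment, were lost without 8-cell 1 (0.80, 0.78 and 0.49), and those of CALR and P4HB failed adjustment. All 3 were lost under both rescalings as well (0.63 and 0.59, 0.70 and 0.66, and 0.75 and 0.71), the ATF4 call also without MII 3 (0.85), the CALR call without MII 1 or MII 3 (0.89 and 1.01) and the P4HB call without any 1 of the MII libraries (1.04 to 1.17). The stress sensor ERN1 fell (-1.44, adjusted p = 0.00735). Of the 8 prefoldin and CCT partners, which bring chains to the ring, 2 rose (PFDN1 and VBP1) and 4 fell (PFDN2, PFDN4, PFDN6 and PDCL3). The VBP1 call (1.03) was lost without MII 1, MII 3 or 8-cell 2 (0.68, 0.94 and 0.83) and under both rescalings, and the PFDN6 call (-1.20) without 8-cell 3 (-0.96). The HSP90 co-chaperone PTGES3 (p23) rose from 3.70 ± 0.25 FPKM (SD, n = 3) in MII to 24.9 ± 16.4 FPKM (log2 2.28, SE 0.38, adjusted p = 0.00162). The heat shock factor HSF1 was at 15.6 ± 21.2 FPKM (SD, n = 3) in 8-cell embryos and 0.852 ± 0.824 FPKM in MII, again with an SD larger than the mean (log2 2.36, adjusted p = 0.0483). Its difference was 1.25 without 8-cell 1, still called, and the call was lost without MII 1 (2.09). GRPEL1, the nucleotide exchange factor of mitochondrial HSP70, fell (log2 -1.66, adjusted p = 0.000564).

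In YTHDF2 siRNA against NC embryos, 4 of the 66 tested members rose (6.06%, against 9.48% of the 11004 genes tested) and 9 fell (13.6%, against 15.3%). After adjustment of the limma p-values 0 higher and 5 lower calls passed 0.05, beside 2.06% and 5.92% of all genes. The lower ones were CCT4, CCT6A, DNAJB9, DNAJC15 and HSPB3. HSPB3 was tested only because of its level in NC, its KD mean of 0.32 FPKM being under the filter, so it had to be lower in KD. Without it 8 members fell, 4 of them after adjustment. The median log2 fold change was -0.08 for the members and 0.01 for all genes. With 2 libraries per group, the marker lists also differed between the groups. The 7 listed oocyte markers summed to 445 and 661 FPKM in NC and to 839 and 1633 FPKM in KD, and 9 listed cumulus markers to 45.2 and 52.2 against 81.4 and 90.7 FPKM, with FSHR and INHA at 0 in all 4 libraries. Blood markers went the other way, at 2.84 and 6.76 FPKM in NC, mostly CD74, and 0.61 and 0.65 FPKM in KD, and sperm markers overlapped, at 13.9 and 24.0 against 10.9 and 34.2 FPKM. The part of these differences in the results was not tested.

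The CCT family held the largest group of lower calls, 4 of its 8 subunits, beside 15.3% of all genes, with a median log2 fold change of -0.87. CCT4 had 53.2 and 38.4 FPKM in NC and 12.6 and 6.91 FPKM in KD (log2 -2.16, SE 0.44, adjusted p = 0.0128). CCT6A had 93.1 and 66.1 FPKM in NC and 27.4 and 25.9 FPKM in KD (log2 -1.52, SE 0.40, adjusted p = 0.0355). Both calls, made by unadjusted p, held in every alternative run and without each of the 4 libraries. The log2 fold changes ran from -2.55 to -1.77 for CCT4 and from -1.77 to -1.28 for CCT6A. Not all of these runs passed after adjustment. CCT3 went from 141 and 103 FPKM to 67.8 and 51.6 FPKM (log2 -1.02, adjusted p = 0.114), and TCP1 from 125 and 141 FPKM to 85.1 and 50.6 FPKM (log2 -1.0, adjusted p = 0.124). These 2 lay at the 2-fold limit and were uncalled when libraries were given equal sums. The CCT3 call was also lost without NC 1 (-0.80) or KD 2 (-0.82), and the TCP1 call without NC 1 (-1.09), NC 2 (-0.91) or KD 2 (-0.63). The TCP1 span overlaps that of ACAT2 in the reference table. The other subunits were uncalled: CCT7 at -0.74, CCT5 at -0.30, CCT8 at 0.04 and CCT2 at 0.81 (log2), the last with 244 and 216 FPKM in NC and 424 and 383 FPKM in KD. The subunits thus lay further apart in KD than in NC. The highest subunit exceeded the lowest 13.9-fold and 13.4-fold in the NC libraries, and 33.7-fold and 78.3-fold in the KD libraries. The untreated 8-cell libraries, at 40.5-fold to 49.4-fold, lay above both NC libraries and between the 2 KD libraries.

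DNAJB9 fell from 203 and 277 FPKM to 122 and 57.5 FPKM (log2 -1.49, SE 0.43, adjusted p = 0.0483), without overlap, but the call was lost without KD 2 (-0.95, adjusted p = 0.321). Of the 4 members that rose from the 4-cell to the 8-cell stage, DNAJB9 alone also fell in KD, where 15.3% of all genes fell. Its partner HSPA5 overlapped between the groups, with 134 and 108 FPKM in NC and 88.2 and 147 FPKM in KD (log2 -0.07, SE 0.41). Over the 60 members tested in both fits, the 8-cell against 4-cell and the KD against NC log2 fold changes correlated at r = -0.01, beside 0.12 over 8348 genes, and these comparisons share no library. HSPB3, a small HSP of muscle and nerve, was at 28.7 and 6.62 FPKM in NC and 0.170 and 0.470 FPKM in KD (log2 -3.52, SE 0.55, adjusted p = 0.00409, a gene that had to differ to pass the filter), and in the untreated libraries it did not exceed 0.114 FPKM. DNAJC15, a mitochondrial inner membrane J protein, had 59.0 and 17.7 FPKM in NC and 6.70 and 4.67 FPKM in KD (log2 -2.34, SE 0.52, adjusted p = 0.0183), or -1.50 without NC 1, still called. For both genes, and for DNAJC5G (12.6 and 3.87 against 2.74 and 1.58 FPKM, log2 -1.39, adjusted p = 0.0959), NC 1 was more than 3-fold above NC 2. The DNAJC5G call was lost without NC 1 (-0.65) or KD 2 (-1.12). DNAJB6 fell by 1.13 on the log2 scale (adjusted p = 0.105), a call lost without NC 1 (-1.02) or KD 2 (-0.86).

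The members that rose in KD did so by 1.06 to 1.19 on the log2 scale and failed adjustment. DNAJC9, a J protein that also binds histones, had 68.2 and 42.3 FPKM in NC and 120 and 111 FPKM in KD (log2 1.09, adjusted p = 0.1), and its span overlaps that of FAM149B1 in the reference table. HSPA14 had 11 and 10.1 against 19.7 and 28.1 FPKM (log2 1.09, adjusted p = 0.109), HSPA2 13.3 and 9.46 against 21.1 and 28.4 FPKM (log2 1.06, adjusted p = 0.119), and DNAJA3 2.61 and 1.72 against 5.65 and 6.72 FPKM (log2 1.19, adjusted p = 0.0888). All 4 calls were lost without NC 2 (0.75 to 1.03), and those of HSPA14, HSPA2 and DNAJA3 also without KD 2 (0.85 to 1.09). The HSPA14 call was lost without NC 1 (1.15) as well.

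The most abundant heat shock proteins showed no call with all 4 libraries in the fit. HSPA8 stood at 1166 and 908 FPKM in NC and 827 and 883 FPKM in KD (log2 -0.27, SE 0.35). HSP90AA1 had 541 and 434 against 514 and 308 FPKM (log2 -0.28, SE 0.39). HSP90AB1 had 341 and 240 against 600 and 271 FPKM (log2 0.49, SE 0.43). These groups overlapped for both HSP90 genes, while their ratio did not: HSP90AA1 over HSP90AB1 was 1.59 and 1.81 in NC and 0.856 and 1.14 in KD. HSPH1 had 77.2 and 62.2 FPKM in NC and 36.9 and 35.6 FPKM in KD (log2 -0.92, adjusted p = 0.142), apart but short of 2-fold. HSP70.1 read 37.9 and 16.5 against 50 and 30.8 FPKM (log2 0.63), DNAJB1 242 and 153 against 300 and 254 FPKM (0.52), and HSPA4 9.26 and 5.69 against 7.14 and 4.14 FPKM (-0.36). HSPA9 was at 157 and 177 FPKM in NC and 88.0 and 95.6 FPKM in KD (log2 -0.85, adjusted p = 0.151). HSPD1 had 43.0 and 36.5 against 35.7 and 21.3 FPKM (-0.51), HSPE1 90.3 and 88.8 against 112 and 205 FPKM (0.75), and HSP90B1 109 and 69.7 against 140 and 96 FPKM (0.41). HSPB1 lay between 3.90 and 6.53 FPKM in the 4 libraries. With 2 libraries a group, several of these values rest on 1 library. HSP70.1 ran from 0.050 to 1.2 over the libraries left out and was called higher without NC 1, HSPE1 ran from 0.32 to 1.19 and was called higher without KD 1, and HSP90AB1 ran from -0.080 to 1.07 and was called higher without KD 2. The SE of these log2 differences was 0.35 to 0.47.

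Of the 52 partner genes tested in the injected embryos 3 rose (5.77%, against 9.48% of all genes) and 5 fell (9.62%, against 15.3%). PTGES3 fell from 299 ± 9.7 FPKM (SD, n = 2) in NC to 98.5 ± 43.2 FPKM in KD (log2 -1.66, SE 0.41, adjusted p = 0.0277), and the heat shock factor HSF2 from 10.4 ± 1.7 to 2.37 ± 0.30 FPKM (log2 -1.75, SE 0.42, adjusted p = 0.0258). BAG2, an HSP70 exchange factor, rose from 4.77 ± 1.34 to 16.1 ± 5.2 FPKM (log2 1.55, adjusted p = 0.045).

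Set beside the untreated 8-cell libraries, whose scale was set apart and against which no test was made, NC and KD libraries held more DNAJB1 (153 to 300 FPKM, against 11.2 to 101) and more HSPA8 (827 to 1166, against 190 to 322). DNAJA2 and HSPA4L went the other way, with 80.6 to 111 against 184 to 341 FPKM and 40.5 to 83.7 against 114 to 126 FPKM. CCT4, CCT6A, DNAJB9 and DNAJC15, which fell in KD, were above the untreated 8-cell range in NC. NC held 38.4 to 53.2, 66.1 to 93.1, 203 to 277 and 17.7 to 59.0 FPKM. Untreated 8-cell libraries held 9.99 to 11.6, 16.6 to 33.6, 21.3 to 76.3 and 1.34 to 2.45 FPKM. KD held 6.91 to 12.6, 25.9 to 27.4, 57.5 to 122 and 4.67 to 6.70 FPKM. Which of NC and KD departed from uninjected embryos was not tested.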

How the data were processed

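Goat oocytes and embryos gave 13 libraries, and their groups were taken from the labels. The authors used HISAT2 on the goat assembly ARS1, discarded reads without a unique position, ran HTSeq for counting and deposited FPKM per gene. FPKM divides by transcript length, so genes can be compared within a library. The Smart-seq2 method, stated for the injected embryos, primes cDNA at the poly(A) tail, so transcript amount and tail length cannot be told apart. The study's DESeq2 count test was not used because the files hold FPKM. The untreated and the injected libraries were deposited as separately normalized tables and were tested only within themselves. For MII 18880 names were listed, and for the 4-cell and 8-cell stages 21869. Comparisons against MII may thus include a difference of processing or source study, which was not tested. There were 0 value columns left unused.

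Names listed once in each table of a fit, averaging 1 FPKM or more over its libraries, were tested on log2(FPKM + 1) with limma 3.58.1 (lmFit, and eBayes with trend) in R 4.3.3, in 1 fit of 9 untreated and 1 of 4 injected libraries, with no covariates. The log2(FPKM + 1) scale understates changes of low genes. Calls needed an unadjusted p under 0.05 and more than 2-fold. Other tables were made with Python 3.11.15, pandas 2.3.3 and numpy 2.4.6. The fit was tested on simulated data. Members and gene lists were chosen with earlier results of these data known. Values in each library are given for fixed core genes, the CCT subunits, and the 8 furthest called members in each direction averaging 10 FPKM or more and with no overlap. A few others (DNAJB1, HSPB3, DNAJC12, DNAJC15, DNAJA3, DNAJA4, DNAJC5G, HSPA13, HSPBP1) were added after their values were seen.

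Depth of the untreated libraries was read from the low FPKM steps. Whole fragments, within 0.01, were recovered for 97.4% to 98.8% of genes above 0, and these genes held 17799728 to 22192161 fragments. Injected tables are rounded to 2 decimals and their depth is unknown. Gene IDs, synonyms and neighbours came from a RefSeq table of another assembly, ARS1.2, in which all 81 names matched. Alternatives were a pseudocount of 0.1, no filter, 2 rescalings, adjusted p, a replicate block and leaving out each library.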

Additional observations from a re-analysis of the deposited data

How the results depend on the processing

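Median-ratio rescaling changed the 4-cell against MII counts to 7 higher and 5 lower and the members' median log2 fold change to 0.025, and equal sums over the shared names gave 3, 6 and -0.16. Without the filter on low values that median was 0.082. In the 8-cell against MII comparison it was 0.14 without the filter, -0.018 with median ratios and -0.061 with equal sums. From the 4-cell to the 8-cell stage, lower calls were 1 after adjustment and 5 with the smaller pseudocount. In KD against NC adjustment left 0 higher and 5 lower calls. Leaving out single libraries gave 1 to 3 lower calls and medians of 0.27 to 0.44 for 4-cell against MII (fewest without 4-cell 1), and 5 to 8 lower calls for 8-cell against MII (fewest without 8-cell 2). For 8-cell against 4-cell it gave 4 to 8 higher calls (most without 8-cell 2) and 1 to 4 lower calls (fewest without 4-cell 3). For KD against NC it gave 0 to 6 higher calls (none without NC 2, by limma) and 5 to 10 lower calls (fewest without NC 1 or KD 2). The cause was not tested. No called member changed direction under any alternative run. The named genes that did so in 18 comparisons were uncalled there, with log2 differences of -0.28 to 0.49. With median ratios CCT8 (-0.25), HSP90B1 (-0.26) and HSPD1 (-0.018) turned for 4-cell against MII, and CCT7 (-0.075) and HSP90B1 (-0.37) for 8-cell against MII. With equal sums CCT8 (-0.49), HSP90B1 (-0.50), HSPA4 (-0.21) and HSPD1 (-0.25) turned for the first, CCT7 (-0.12), HSP90B1 (-0.41) and TCP1 (-0.0045) for the second, and CCT4 (0.058) and HSP90B1 (0.086) for 8-cell against 4-cell. Over the left-out libraries CCT7 ran from -0.26 to 0.19, CCT8 from -0.021 to 0.14 and HSP90B1 from -0.088 to 0.16 for 4-cell against MII, and HSP90B1 from -0.082 to 0.14 and HSPE1 from -0.20 to 0.027 for 8-cell against MII. For 8-cell against 4-cell CCT4 ran from -0.14 to 0.041, HSP90AA1 from -0.0092 to 0.37, HSP90B1 from -0.13 to 0.097 and HSPB1 from -0.057 to 0.39. For KD against NC CCT8 ran from -0.26 to 0.35, HSP90AA1 from -0.65 to 0.085, HSP90AB1 from -0.080 to 1.07, HSPA5 from -0.44 to 0.29 and HSPB1 from -0.029 to 0.51. Deviations of same-numbered libraries correlated at -0.508 to 0.201. With 2 or 3 libraries a group, these values cannot show whether libraries share a culture or batch. With the replicate block the counts were 14 and 3, 12 and 8, 4 and 3, and 4 and 9, as without it, though TCP1 was no longer called lower in KD. Crossing the numbers of the injected libraries, a choice made after the correlation of -0.152 between NC and KD was seen, gave 4 and 10. A group left with 1 library was assumed to vary like the others. HSP70.1 at the 4-cell stage, HSPB1 in embryos and DNAJC12 in MII rest on few fragments, and the depth of the injected libraries is unknown.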
